A study of Mus musculus with 6 samples.

Results

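The genes described here encode the receptors that sense extracellular adenosine and the enzymes and transporter that make, move and remove it, measured in regulatory T cells (Tregs), a subset of CD4 T cells that keeps other immune cells in check. They were chosen by name, as 9 genes: those of the adenosine 2A and 2B receptors, Nt5e, Entpd1, Ada, Adk, Dpp4, Slc29a1 and Ahcy. Every probe set that the platform annotation pairs with one of them was taken, alone or with further symbols. This gave 19 probe sets for 7 genes, of 45037 probe sets on the array other than controls. None of the 19 carried a further symbol. For the 2 receptor genes the annotation table used here named no probe set, so neither is analysed here, and the genotype labels carry no expression check.

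Each sample was 1 Affymetrix array of RNA from Tregs, from the spleen and lymph nodes of C57Bl/6 mice at 8 to 11 weeks of age, where cells with green fluorescence were sorted to be CD4+CD25+FoxP3+. All animals carried the FoxP3GFP reporter. The groups were wild-type cells, A2AR+/+FoxP3GFP, kept for 18 h in DMSO alone (WT vehicle), A2AR-/-FoxP3GFP cells kept for 18 h in DMSO alone (KO vehicle), and wild-type cells kept for 18 h with 10 nM ATL1222, described in the labels as a selective A2AR agonist (WT ATL1222). There were 2 arrays in each group, labelled biological replicates 1 and 2. Whether replicates are from different mice is not in the labels, and the spread behind each p-value may therefore be technical. No knockout cells received the agonist, and the labels do not say in which cells the receptor gene was deleted.

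Adenosine outside the cell is made stepwise from ATP. CD39, the product of Entpd1, removes phosphates from ATP and ADP to leave AMP, and CD73, the product of Nt5e, turns AMP into adenosine. Tregs are known for carrying both enzymes on their surface. Adenosine acts on the 2A and 2B receptors, which raise cAMP in the cell. It is cleared by the transporter ENT1, encoded by Slc29a1, and then by adenosine kinase (Adk), which phosphorylates it to AMP, or by adenosine deaminase (Ada), which turns it into inosine. Dpp4 encodes CD26, a surface peptidase that binds adenosine deaminase in human cells. Ahcy encodes the enzyme that splits S-adenosylhomocysteine into homocysteine and adenosine.

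Adk and Nt5e are the members with a difference past the threshold in a fit with or without the replicate block, and the A2AR signals through cAMP, so the DNA before their start sites is shown with matches to the core letters of the cAMP response element. RefSeq (GRCm38.p6) start sites were at hand for 8 of the 9 genes, with 17 windows of 300 bases, 250 before and 50 after each start. The windows were searched on both strands for the palindrome TGACGTCA and for its 5-base part TGACG, which reads CGTCA on the other strand and lies within the palindrome. The lines below give the 250 bases before the start, 5′ to 3′ on the plus strand, with matches to the 5-base part in capitals.
Nt5e, chr9:88327359-88327608: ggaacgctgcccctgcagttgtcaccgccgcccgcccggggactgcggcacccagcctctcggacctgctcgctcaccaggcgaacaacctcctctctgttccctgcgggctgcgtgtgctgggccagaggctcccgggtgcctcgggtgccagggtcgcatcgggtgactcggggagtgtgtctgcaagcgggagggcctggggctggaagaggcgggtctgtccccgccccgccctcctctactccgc
Adk, first start, chr14:21052324-21052573: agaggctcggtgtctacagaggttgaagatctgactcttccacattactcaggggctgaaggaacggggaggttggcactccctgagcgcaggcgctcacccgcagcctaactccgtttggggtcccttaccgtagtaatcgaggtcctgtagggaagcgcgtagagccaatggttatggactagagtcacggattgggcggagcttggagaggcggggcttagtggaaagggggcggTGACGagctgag
Adk, second start, chr14:21075902-21076151: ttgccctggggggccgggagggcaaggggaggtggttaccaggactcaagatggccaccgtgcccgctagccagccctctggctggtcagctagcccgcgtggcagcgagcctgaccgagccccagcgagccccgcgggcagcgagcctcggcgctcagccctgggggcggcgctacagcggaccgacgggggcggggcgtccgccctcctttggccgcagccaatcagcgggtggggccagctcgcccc
The window of Nt5e held no match to either motif, and 72% of the bases shown are G or C. The first window of Adk held 1 match to the 5-base part, whose first base lies 12 bases before the start site, and the second held none. Over all 17 windows, 4 held the 5-base part (both of Entpd1, 1 of Adk and 1 of Slc29a1) and 0 held the palindrome. Among all 32851 promoter windows of 300 bases, 20.8% held the 5-base part and 1.79% the palindrome. These matches describe letters only.

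The 6 arrays had median signals from 74.7 to 98.2, and the authors had scaled them to 1 trimmed mean. Arrays of the same group correlated with Pearson r from 0.938 to 0.951 across probe sets, and arrays of different groups with r from 0.939 to 0.959. Of 8 Treg markers 7 passed the limit for dim probe sets, among them Ikzf2 at 6810 to 8431 and Il2ra at 416.0 to 613.1, while Foxp3, used in the sort, was listed at 7.18 to 53.5. The summed signal of the 8 was 23480 to 25569 in KO vehicle, 23715 to 29459 in WT vehicle and 27072 to 31913 in WT ATL1222, so it was higher with the agonist than in the knockout without overlap. Among them Tnfrsf18 read 3623 and 2921 in KO vehicle and 7823 and 6331 in WT ATL1222. Ctla4 read 3432 and 3759 in KO vehicle and 6410 and 5699 in WT ATL1222. Nrp1 went the other way, with 8299 and 6821 in KO vehicle and 6109 and 5319 in WT ATL1222. Il2ra, Ikzf2, Cd4, Cd3e and Foxp3 overlapped between these groups, so the markers did not move together. The part of these differences in the values of Adk and Nt5e was not tested. Summed signals of 6 measured B cell markers lay between 629.2 and 814.0 on every array, and those of 7 myeloid markers between 281.0 and 546.7. These 2 ranges overlapped between all groups; Entpd1 is known in both cell types, and their part in the results was not tested. For 5 dendritic cell markers the sum was 208.6 to 267.2 in KO vehicle, 255.2 to 306.9 in WT vehicle and 275.7 to 363.6 in WT ATL1222. For 5 stromal and endothelial markers it was 560.3 to 794.8 in KO vehicle, 734.2 to 735.1 in WT vehicle and 658.2 to 713.1 in WT ATL1222. Some markers of these lists stayed low on every array, with at most 41.9 for Cd14 of monocytes, 57.1 for Flt3 of dendritic cells, 61.7 for Ncr1 of NK cells and 77.7 for Cd79a of B cells. Others were brighter, at 186.8 to 258.7 for Cd79b and 150.0 to 242.5 for Ms4a1 of B cells. Of the 7 myeloid markers 3 passed the limit, with Lyz2 at 42.1 to 123.3, Csf1r at 63.3 to 121.9 and Cd68 at 46.0 to 70.9. Cd8b1 of CD8 T cells read 118.4 to 249.1, and Eomes of NK and CD8 T cells 124.8 to 213.3. The brightest was Pecam1 of the stromal and endothelial list, at 364.4 to 475.9, and Zbtb46 of the dendritic list read 86.9 to 173.9. The summed signal of 5 CD8 T and NK cell markers was 490.5 to 589.5 in KO vehicle and 369.2 to 453.8 over WT vehicle and WT ATL1222. The part of these cell types in the members' values was not tested. In bulk RNA, fewer cells that express a gene and less RNA per cell cannot be told apart.

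Of the 19 probe sets, 17 passed a limit that left out the 40% of probe sets with the lowest mean, at about signal 54.2, and at least 1 of them belonged to each of the 7 genes. The 2 left out were 1 of 3 for Nt5e and 1 of 6 for Adk. Differences were tested with limma on log2(signal + 16), over 27022 probe sets in all, a scale on which fold changes of dim probe sets come out too small. Brightness differs between probe sets for reasons other than transcript level, so levels of the members are compared between groups and not between probe sets. The same limit applies to the marker signals and sums above, where bright probe sets weigh most.

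**Figure D1:**
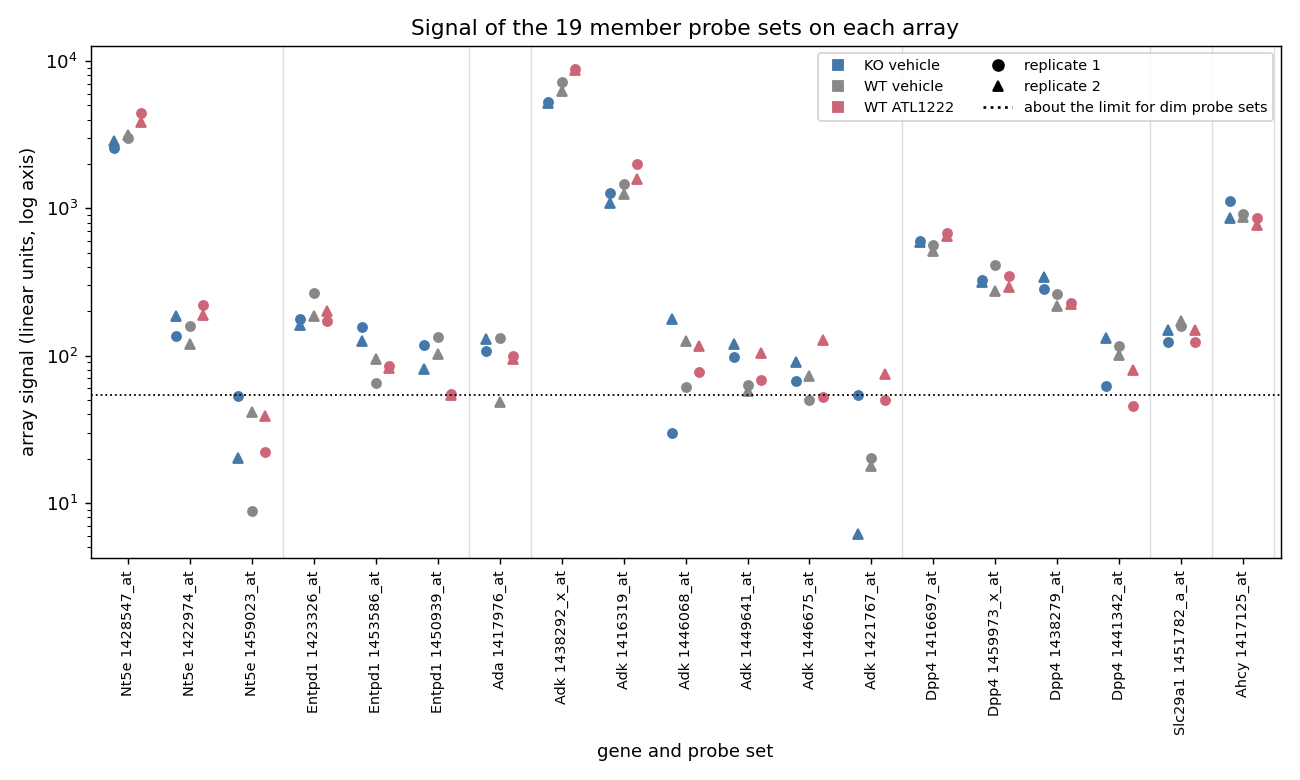
Signal of each of the 19 member probe sets on each of the 6 arrays (log axis, linear signal units), coloured by group, with circles for replicate 1 and triangles for replicate 2; the dotted line marks signal 54.2, about the limit for dim probe sets. The order KO vehicle, WT vehicle, WT ATL1222 without overlap is seen for Adk 1438292_x_at and Nt5e 1428547_at. The share of all probe sets with this order was not counted.

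Without the replicate number in the fit, Adk was the one member gene with a difference past the threshold, between agonist-treated wild-type cells and knockout cells. Its probe set 1438292_x_at read 5292 and 5170 in KO vehicle, 7196 and 6299 in WT vehicle, and 8808 and 8691 in WT ATL1222. The 3 groups did not overlap, and the 2 arrays of a group lay close together in KO vehicle and in WT ATL1222 and further apart in WT vehicle. The mean was 8749 ± 82.6 (SD, n = 2) with ATL1222 and 5231 ± 86.6 in the knockout, 1.67-fold higher with the agonist (log2 fold change 0.74 ± 0.12 SE, limma adjusted p = 0.0281). The pair differs in both the receptor and the agonist, so their shares cannot be told apart. With 2 arrays a group, the groups did not overlap for 28.7% of all probe sets tested between KO vehicle and WT vehicle, 29.8% between WT ATL1222 and WT vehicle, and 35.5% between WT ATL1222 and KO vehicle. Over all probe sets 88 of 27022, or 0.326%, passed in this comparison, 83 of them higher and 5 lower with ATL1222.

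Set against WT vehicle, at 6748 ± 634 (SD, n = 2), neither difference of this Adk probe set passed. The log2 fold change was 0.38 ± 0.12 SE with ATL1222 (95% confidence interval 0.11 to 0.64, unadjusted p = 0.0100, limma adjusted p = 1.00). It was -0.36 ± 0.12 in the knockout (interval -0.63 to -0.10, unadjusted p = 0.0123, limma adjusted p = 1.00). Both differences use the same WT vehicle arrays. Within replicates 1 and 2 the knockout stood at log2 -0.44 and -0.28 and the agonist at 0.29 and 0.46. Between agonist and knockout the log2 differences were 0.73 and 0.75 within the replicates.

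The suffix x of this probe set is one the manufacturer uses where some probes may also match other transcripts. A second bright probe set of Adk, 1416319_at, has no such suffix. It read 1270 and 1087 in KO vehicle, 1465 and 1245 in WT vehicle, and 1995 and 1587 in WT ATL1222. WT ATL1222 lay above both other groups without overlap, whereas KO vehicle and WT vehicle overlapped. Its log2 difference between agonist and knockout was 0.59 ± 0.17 SE and did not pass (limma adjusted p = 0.370). A fit with the replicate as a block removes a shift shared by all arrays of 1 replicate number, and there it passed (limma adjusted p = 0.0329). Against WT vehicle it stood at log2 0.39 ± 0.17 with the agonist and -0.20 ± 0.17 in the knockout, each with limma adjusted p = 1.00.

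The other 4 probe sets of Adk were dim. Their log2 differences with the agonist from WT vehicle were 0.09 to 1.16, the same direction as in the 2 bright ones. In the knockout they ran from -0.15 to 0.70, whereas both bright ones were lower than in WT vehicle. The SE of these differences was 0.41 to 0.66. The probe set 1449641_at read 97.3 and 119.2 in KO vehicle, 63.6 and 57.2 in WT vehicle, and 68.7 and 104.1 in WT ATL1222. Both the knockout and the agonist arrays thus lay above WT vehicle. The probe set 1446068_at ran from 29.8 to 177.5 within KO vehicle alone. The probe set 1446675_at overlapped between all 3 groups, at 49.8 to 128.3. None of these 3 passed in any comparison. The last, 1421767_at, lay below the limit and was not tested, with 54.4 and 6.11 in KO vehicle, 20.2 and 17.8 in WT vehicle, and 50.3 and 75.5 in WT ATL1222. There the agonist arrays lay above WT vehicle, while the knockout spanned most of the range.

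The call for Adk rests on all 4 arrays of the groups compared. Leaving out KO vehicle replicate 1 or 2 gave limma adjusted p = 0.118 or 0.153, and leaving out WT ATL1222 replicate 1 or 2 gave 0.331 or 0.223, while the log2 difference stayed between 0.72 and 0.76. It also missed the threshold with no filter on dim probe sets (limma adjusted p = 0.0598) and without the variance trend (limma adjusted p = 0.704). Averaging all 6 probe sets of Adk with equal weight, dim ones included, brought it to log2 0.39, which did not pass either (limma adjusted p = 0.770).

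**Figure D2:**
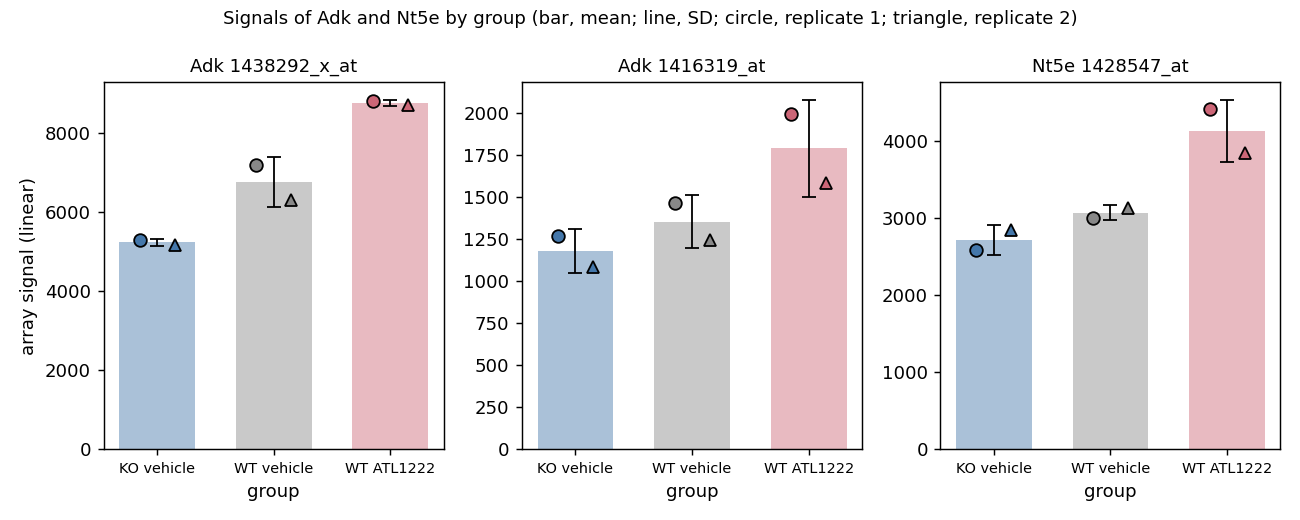
Array signal (linear axis from 0) of the probe sets Adk 1438292_x_at, Adk 1416319_at and Nt5e 1428547_at in KO vehicle, WT vehicle and WT ATL1222; bars are means of 2 arrays, lines are SD, and circles and triangles are replicates 1 and 2. Means are higher from left to right in each panel, and one difference passed the test, Adk 1438292_x_at between WT ATL1222 and KO vehicle (limma adjusted p = 0.0281).

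Nt5e, the gene of the enzyme that releases adenosine from AMP, had its highest signals with the agonist. Its brightest probe set, 1428547_at, read 2582 and 2852 in KO vehicle, 3006 and 3138 in WT vehicle, and 4419 and 3853 in WT ATL1222. The groups did not overlap, with a narrower gap between KO vehicle and WT vehicle than between WT vehicle and WT ATL1222. The means were 2717 ± 191 (SD, n = 2), 3072 ± 93.3 and 4136 ± 400 in that order.

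With ATL1222 the log2 difference of this Nt5e probe set from WT vehicle was 0.42 ± 0.13 SE, 1.34-fold on the scale tested (interval 0.13 to 0.71, unadjusted p = 0.00827, limma adjusted p = 1.00), and it did not pass. In the knockout it was -0.18 ± 0.13 (interval -0.47 to 0.11, limma adjusted p = 1.00). Between agonist and knockout it was 0.60 ± 0.13, which did not pass without the replicate block (limma adjusted p = 0.136) and passed with it (limma adjusted p = 0.0238). Within replicates 1 and 2 that difference was 0.77 and 0.43.

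A dimmer probe set of Nt5e, 1422974_at, read 135.3 and 187.2 in KO vehicle, 157.8 and 119.3 in WT vehicle, and 221.7 and 190.0 in WT ATL1222. The agonist arrays again lay above the others, but KO vehicle and WT vehicle overlapped and the knockout mean was the higher of the pair. Its log2 difference with the agonist was 0.53 ± 0.31 from WT vehicle (limma adjusted p = 1.00) and 0.34 ± 0.31 from the knockout (limma adjusted p = 0.968). The third, 1459023_at, read 8.75 to 53.3 over all arrays, below the limit, and was not tested.

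The genes whose brightness followed that of Nt5e 1428547_at most closely over the 6 arrays, among 21181 probe sets with 1 gene symbol, were Crlf3, Pik3r1 and Stat5a. Pearson r on the log2 scale was 0.987 for Crlf3, a cytokine receptor-like factor gene, 0.986 for Pik3r1, a regulatory subunit gene of PI3 kinase, and 0.985 for Stat5a, a transcription factor gene of cytokine signalling. The signals of Stat5a were 164.3 and 219.2 in KO vehicle, 213.1 and 244.8 in WT vehicle, and 379.7 and 310.2 in WT ATL1222. The 2 bright Adk probe sets had r = 0.909 and 0.867 with Nt5e 1428547_at, and their rank among all was not taken. Of the 21181 probe sets, 56 had r above 0.95. The values of Crlf3, Pik3r1 and Stat5a are the highest of many over 6 points that share arrays and scaling. All are given as a description.

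Entpd1, the gene of the enzyme that acts before CD73, gave 3 probe sets that did not move together. The brightest, 1423326_at, read 176.3 and 161.2 in KO vehicle, 267.3 and 186.9 in WT vehicle, and 172.3 and 201.6 in WT ATL1222. WT vehicle replicate 1 stood above the other 5 arrays, which lay within 161.2 to 201.6. The log2 differences from WT vehicle were -0.38 ± 0.29 in the knockout and -0.24 ± 0.29 with the agonist (interval -0.87 to 0.38), each with limma adjusted p = 1.00.

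The probe set 1453586_at of Entpd1 had the opposite order, with 156.1 and 124.9 in KO vehicle, 65.1 and 94.9 in WT vehicle, and 85.2 and 82.9 in WT ATL1222. The knockout arrays lay above all others (log2 0.72 ± 0.38 against WT vehicle, limma adjusted p = 1.00). The probe set 1450939_at read 117.3 and 80.8 in KO vehicle, 132.9 and 102.0 in WT vehicle, and 55.1 and 53.7 in WT ATL1222, so the agonist arrays lay below all others, at about the limit for dim probe sets. Its log2 difference with the agonist was -0.91 ± 0.41 from WT vehicle (unadjusted p = 0.0456, limma adjusted p = 1.00). None of the Entpd1 probe sets passed in any comparison, with or without the replicate block.

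Ada, whose enzyme deaminates adenosine, had 1 probe set, 1417976_at, at 107.5 and 129.9 in KO vehicle, 132.7 and 48.5 in WT vehicle, and 99.0 and 94.7 in WT ATL1222. The 2 WT vehicle arrays were the highest and the lowest of the 6, so this group's mean carries little information. The intervals of its log2 differences from WT vehicle ran from -0.52 to 1.43 in the knockout and from -0.77 to 1.18 with the agonist.

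Dpp4 gave 4 probe sets, and none passed in any comparison. The brightest, 1416697_at, read 602.9 and 595.3 in KO vehicle, 565.0 and 513.7 in WT vehicle, and 675.5 and 650.3 in WT ATL1222. The groups did not overlap, with WT vehicle lowest, and the log2 differences from it were 0.15 ± 0.17 in the knockout and 0.29 ± 0.17 with the agonist (each limma adjusted p = 1.00). The probe set 1438279_at read 284.1 and 342.4 in KO vehicle, 262.9 and 218.4 in WT vehicle, and 226.1 and 224.4 in WT ATL1222, highest in the knockout. The probe set 1459973_x_at overlapped between all groups at 274.0 to 409.4. The dimmest, 1441342_at, ran from 45.3 to 132.2.

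Slc29a1, the transporter gene, had 1 probe set, 1451782_a_at, at 123.9 and 150.3 in KO vehicle, 157.7 and 172.8 in WT vehicle, and 123.8 and 148.2 in WT ATL1222. KO vehicle and WT ATL1222 lay in the same range, below WT vehicle. The log2 differences from WT vehicle were -0.25 ± 0.31 and -0.26 ± 0.31, each with limma adjusted p = 1.00. The interval of the difference between agonist and knockout ran from -0.68 to 0.67.

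Ahcy had 1 probe set, 1417125_at, at 1129 and 853.9 in KO vehicle, 912.4 and 875.8 in WT vehicle, and 865.8 and 773.5 in WT ATL1222. KO vehicle overlapped with both other groups, and the agonist arrays lay just below those of WT vehicle. The intervals of its log2 differences from WT vehicle ran from -0.26 to 0.52 in the knockout and from -0.52 to 0.26 with the agonist.

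**Figure D3:**
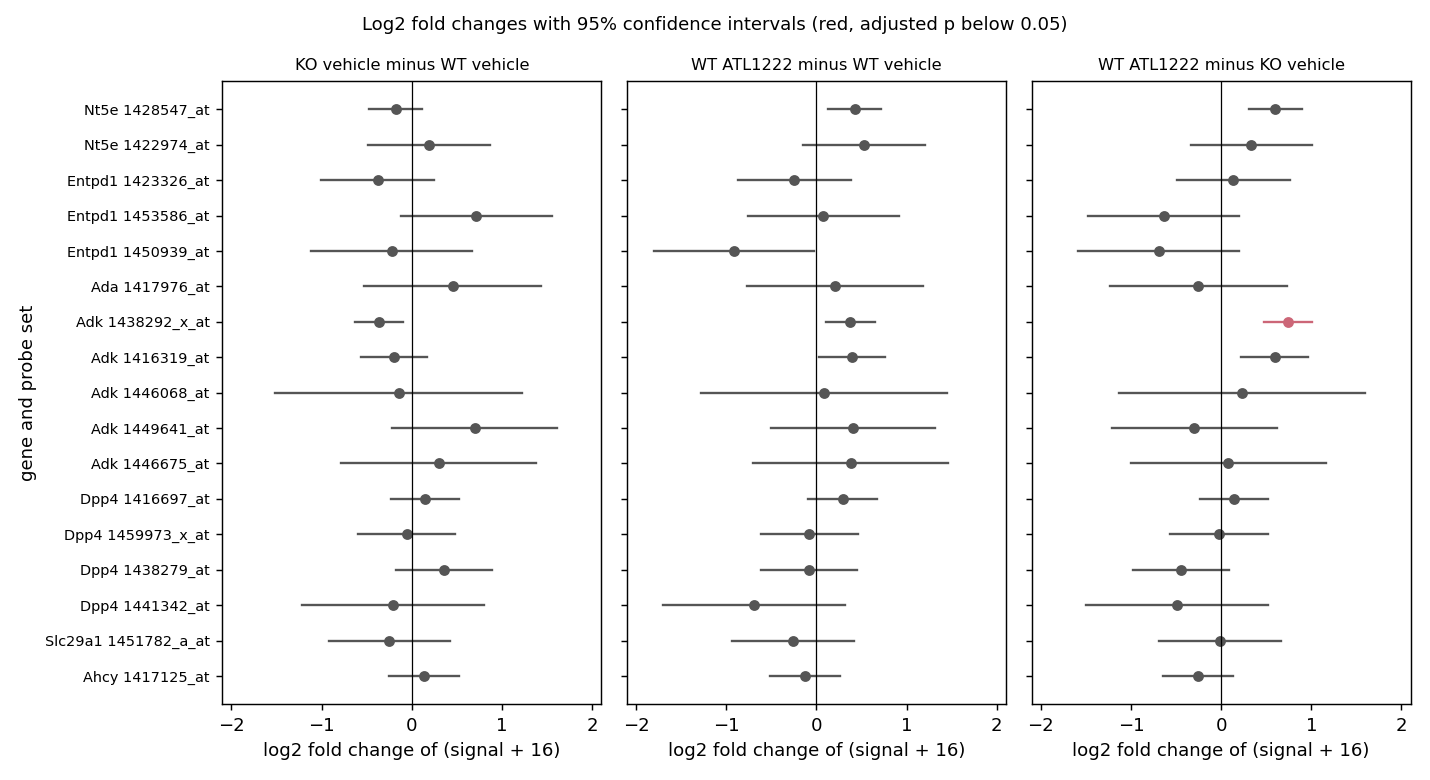
Log2 fold changes of (signal + 16) with 95% confidence intervals for the 17 tested member probe sets, in 3 panels for KO vehicle minus WT vehicle, WT ATL1222 minus WT vehicle and WT ATL1222 minus KO vehicle. Red marks the 1 value with adjusted p below 0.05, Adk 1438292_x_at in the right panel at log2 0.74; dim probe sets have wide intervals.

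In the first comparison, what loss of the receptor changes without agonist, 0 of the 17 tested member probe sets passed in limma, and 0% of all 27022 did. The unadjusted p was under 0.05 for 1 of the 17, Adk 1438292_x_at, and for 3.23% of all probe sets. The median log2 fold change of the 17 was -0.06 and that of all probe sets 0.02, with 8 values above and 9 below 0. With the replicate block 0 of the 17 passed too, where 0.0407% of all probe sets did.

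In the second comparison, what the agonist changes in wild-type cells, 0 of the 17 passed in limma, and 0.0333% of all probe sets did. The unadjusted p was under 0.05 for 4 of the 17, both bright Adk probe sets, Nt5e 1428547_at and Entpd1 1450939_at, and for 3.83% of all probe sets. The median log2 fold change was 0.09 for the 17 and -0.02 for all probe sets. With the replicate block 0 of the 17 and 0.278% of all probe sets passed.

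Between WT ATL1222 and KO vehicle 1 of the 17 passed, beside the 0.326% of all probe sets given above, and with the replicate block 3 did (both bright Adk probe sets and Nt5e 1428547_at), beside 0.962% of all. The unadjusted p was under 0.05 for the same 3 and for 6.16% of all probe sets. The median log2 difference of the 17 was -0.01, and that of all probe sets -0.04.

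Of 56 further genes of adenosine and purine handling, 44 had a probe set with 1 symbol and 33 had at least 1 of 55 tested probe sets. Of these 55, 0 passed in any of the 3 comparisons in limma, with or without the replicate block. The unadjusted p was under 0.05 for 1, 2 and 3 of them in the order used above. Their median log2 fold changes were 0.10 in the knockout, -0.07 with the agonist and -0.12 between agonist and knockout, beside 0.02, -0.02 and -0.04 for all probe sets. Among the other receptors, Adora1 had no probe set with 1 symbol, and Adora3 lay below the limit in both of its probe sets.

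The 5 probe sets of that list with the smallest unadjusted p did not pass either. Xdh, the gene of xanthine oxidoreductase, which acts late in purine breakdown, read 518.4 and 583.9 in KO vehicle, 491.9 and 355.0 in WT vehicle, and 600.7 and 714.1 in WT ATL1222 (log2 0.63 ± 0.21 with the agonist from WT vehicle, limma adjusted p = 1.00). Nt5m, a mitochondrial nucleotidase gene, read 259.2 and 277.5 in KO vehicle, 176.2 and 149.3 in WT vehicle, and 281.7 and 190.3 in WT ATL1222, lowest in WT vehicle. P2rx7, the gene of an ATP-gated channel, read 143.5 and 271.3 in KO vehicle, 106.6 and 152.9 in WT vehicle, and 116.2 and 93.8 in WT ATL1222 in its probe set 1419853_a_at. The log2 difference of this probe set between agonist and knockout was -0.83 ± 0.37 (limma adjusted p = 0.806), and within replicates 1 and 2 it was -0.27 and -1.39. In the brightest probe set of P2rx7, 1439787_at, the same difference was smaller, at -0.20 ± 0.20. In the dimmer 1422218_at it was -0.55 ± 0.49, and neither passed.

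In the remaining genes of these 5, 1 array stood far below the others. Adal, an adenosine deaminase-like gene, read 118.2 and 13.3 in WT ATL1222 against 114.0 to 178.8 on the other 4 arrays, in its probe set 1428198_at. Ak1, an adenylate kinase gene, read 54.5 and 4.93 in WT ATL1222 against 67.9 to 103.9 on the other 4, in its probe set 1422184_a_at. In both, the low value is that of WT ATL1222 replicate 2.

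**Figure D4:**
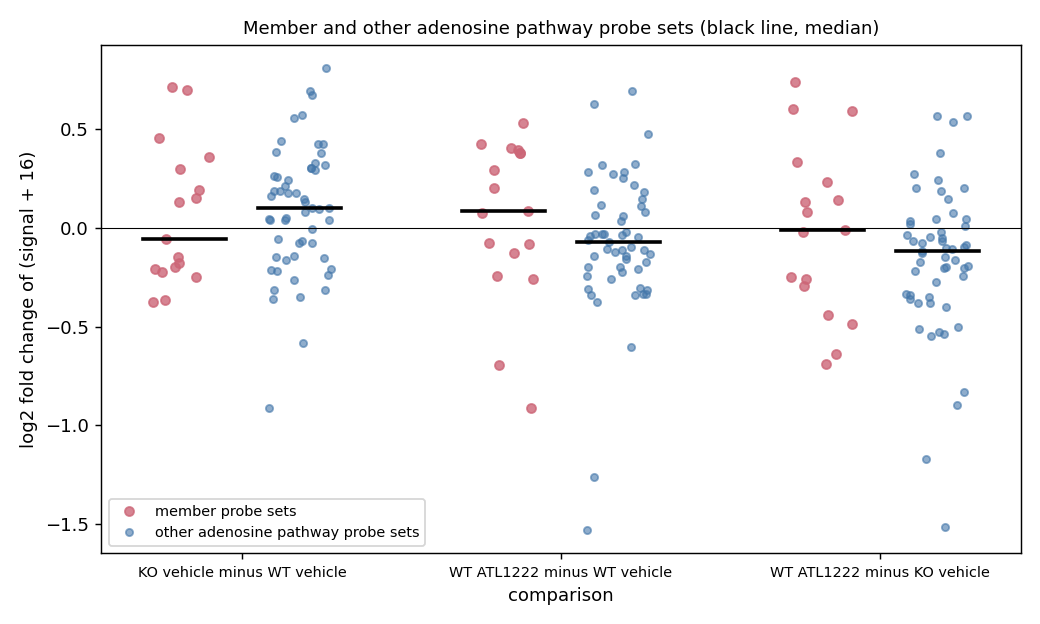
Log2 fold changes of (signal + 16) for the 17 tested member probe sets (red) and 55 probe sets of other genes of adenosine and purine handling (blue) in each of 3 comparisons; black lines are medians. Medians lie between -0.12 and 0.10, and the highest red point on the right is Adk 1438292_x_at at 0.74.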

How the data were processed

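Expression was measured on 6 arrays, in 3 groups of 2. Per the labels' protocols, labelling with biotin started from 1 µg of total RNA. The authors deposited 1 array signal, an intensity on a linear scale, for each of 45101 probe sets, made with GCOS per the submitters' processing notes. For GCOS, neither version nor summarization method is given in the sources used here. All arrays had a mean of 250.0 once 2% of probe sets were trimmed at each end, and no further scaling was applied.

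Symbols came from the platform annotation, updated through Entrez identifiers to a table of GRCm38.p6. Of 45037 probe sets other than the 64 controls, 34945 had 1 symbol, 932 had several and 9160 had none listed. Probe sets in the lowest 40% by mean log2(signal + 16) were not tested. The tests were made in limma 3.58.1 (R 4.3.3) with the variance trend, in 1 fit over all 6 arrays, and p-values were adjusted by Benjamini-Hochberg over 27022 probe sets at a threshold of 0.05. The limma fit without the replicate block was tested on simulated data with known changes between WT ATL1222 and WT vehicle. The fit with the block was not tested in this way. Precision is limited by the number of arrays, with a median standard error of 0.317 for a log2 fold change. With 2 arrays a group, the smallest two-sided p of an exact permutation test is 0.333.

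Replicate 1 minus replicate 2 correlated between groups with r of 0.235, 0.223 and 0.150 over the probe sets tested, and the 4 spiked-in poly-A controls (Lys, Phe, Thr and Dap) were 1.20 to 2.06 times as bright on replicate 1 in every group. The controls BioB, BioC, BioD and Cre showed no such shared shift, at 0.900 to 0.979 times in WT vehicle and WT ATL1222 and 1.09 to 1.21 times in KO vehicle. Median signals were lower on replicate 1 than on replicate 2 in every group. They were 76.9 and 98.2 in WT vehicle, 84.1 and 96.3 in KO vehicle, and 74.7 and 87.7 in WT ATL1222. The part of this in the correlations was not tested. From the correlations, the replicate numbers were taken to pair the arrays, and a fit with them as a block was run beside the main one. The members and lists were chosen with earlier results of these data known. All member probe sets were described. Further genes were named where they passed or were among the 5 with the smallest p, and for Nt5e as the 3 genes with the highest r. Alternatives covered the block, pseudocount, filter, normalization, variance trend, arrays used and probe sets per gene. Promoters came from RefSeq, and python 3.11.15 was used.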

Additional observations from a re-analysis of the deposited data

How the results depend on the processing

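Each result was recomputed under up to 17 alternatives, 6 of which leave out 1 array. Probe sets removed by a stricter filter or by keeping 1 value per gene have no value there. Adk 1446068_at, for example, had 14 alternatives. Where leaving out an array leaves 1 array in a group, that group is assumed to vary like the others. In the knockout and agonist comparisons with WT vehicle, 0 member probe sets passed under each of them. Between WT ATL1222 and KO vehicle the count of 1 was 3 with the replicate block and 0 with no filter, with no variance trend and with probe sets averaged, and 0 to 1 without 1 array. Adk 1438292_x_at then ran from log2 0.39 to 0.76 and from limma adjusted p = 0.00219 to 0.770. The replicate block changed no other call of a member.

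Over all probe sets the counts moved more. For the knockout against WT vehicle 0 became 11 with the block, 1 with a pseudocount of 64, 3 with quantile normalization, 4 with cyclic loess and 3 with the brightest probe set of each gene, and 0 to 6 without 1 array (6 without replicate 2 of WT vehicle, 2 without replicate 1 of KO vehicle). For the agonist against WT vehicle 9 became 75 with the block, 22 with a pseudocount of 64, 20 with quantile normalization, 24 with cyclic loess, 0 with no variance trend, 23 with the brightest probe set, 3 with averaging, 21 with only the 4 arrays compared, and 3 to 21 without 1 array (21 without WT vehicle replicate 1, 20 without KO vehicle replicate 2, and 3 and 4 without WT ATL1222 replicates 1 and 2). For the agonist against the knockout 88 became 260 with the block, 0 with no variance trend, 44 with averaging, and 15 to 108 without 1 array (49 without either KO vehicle array, and 15 and 37 without WT ATL1222 replicates 1 and 2).

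Changes of sign were limited to differences that did not pass. Averaging gave all probe sets of a gene equal weight and was done before the filter. It took in Nt5e 1459023_at and Adk 1421767_at, both below the limit, at log2 0.41 and 0.17 in the knockout from WT vehicle. With probe sets averaged, the knockout minus WT vehicle turned to log2 0.14 for Nt5e, 0.039 for Entpd1 and 0.077 for Adk, the agonist minus WT vehicle to -0.14 for Dpp4, and the agonist minus the knockout to -0.40 for Entpd1 and -0.20 for Dpp4. The last difference of Slc29a1 turned to 0.084 with quantile normalization and 0.074 with cyclic loess. Leaving out 1 array, the knockout minus WT vehicle ranged from -0.15 to 1.06 for Ada, -1.19 to 0.89 for Adk 1446068_at, -0.065 to 0.33 for Ahcy, -0.67 to 0.25 for Dpp4 1441342_at, -0.33 to 0.22 for Dpp4 1459973_x_at, -0.45 to 0.0081 for Entpd1 1450939_at and -0.019 to 0.41 for Nt5e 1422974_at. The agonist minus WT vehicle ranged from -0.40 to 0.81 for Ada, -0.35 to 0.53 for Adk 1446068_at, -0.16 to 0.92 for Adk 1446675_at, -0.21 to 0.042 for Dpp4 1438279_at, -0.35 to 0.20 for Dpp4 1459973_x_at and -0.15 to 0.30 for Entpd1 1453586_at. The agonist minus the knockout ranged from -0.81 to 1.27 for Adk 1446068_at, -0.46 to 0.62 for Adk 1446675_at, -0.14 to 0.10 for Dpp4 1459973_x_at and -0.13 to 0.12 for Slc29a1. The cause of the changes other than those from averaging was not tested.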
